A study of Homo sapiens with 18 samples.

Results

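The genes described here are 9 rows of the count table that belong to transforming growth factor beta (TGF-β) signalling: the ligands TGFB1 and TGFB2, the receptors TGFBR1 and TGFBR2, the signal transducers SMAD2 and SMAD3, their repressor SKIL, the induced matrix protein TGFBI and the latent TGF-β binding protein family member LTBP2. They were picked by name, out of 36684 gene symbols in the table, with earlier results of these data known. All 9 passed the filter on low counts that left 14557 genes to test. Poly(A) RNA of Hep3B, a human hepatoma cell line, was sequenced in 18 libraries, 3 in each of 6 groups. Con cells received no listed agent, Model cells received free fatty acids (FFA), FUCO-0.5, FUCO-1 and FUCO-2 cells received FFA with fucoxanthin (FUCO, a marine carotenoid) at 0.5, 1 and 2 μM, and RES cells received FFA with Resmetirom, an agonist of thyroid hormone receptor beta. All libraries come from this single line, which the study uses as a stand-in for hepatocytes, and the study calls the 3 libraries of a group biological replicates. The FFA concentration, the treatment times and the RES dose are not given for these libraries in the sources used here.

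TGF-β is secreted as an inactive complex held by latency proteins in the matrix. Once released, it binds the receptor kinase TGFBR2, which activates TGFBR1, and TGFBR1 phosphorylates SMAD2 and SMAD3, which enter the nucleus with SMAD4 and change transcription. In liver the pathway is known for driving stellate cells to deposit matrix and for slowing the growth of hepatocytes.

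RES against Model gave the most calls among the comparisons with Model, as it did over all tested genes (49.4%). That share was 17.6% in Model against Con and 1.45%, 3.21% and 20.5% in FUCO against Model at 0.5, 1 and 2 μM. TGFB2, TGFBI and LTBP2 lay at 28.0%, 43.2% and 48.1% of their Model level, TGFBR1, TGFBR2, SMAD2, SMAD3 and SKIL were between 59.4% and 79.3% of it, and TGFB1 did not pass the test. FFA alone raised TGFB2 and TGFBR2 and lowered SMAD2 and TGFBI against Con, each by less than 1 on the log2 scale, and of these 4 only SMAD2 kept its call whichever single library was left out. FUCO lowered TGFBR1 at 1 and 2 μM and SMAD3 at 2 μM, and no member passed the test at 0.5 μM. The call at 1 μM was lost in 6 of 18 fits that each left out 1 library, and both calls at 2 μM held in all 18.

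Of the 9 genes in GRCh38.p14, TGFB1 lies on chromosome 19 (41330323 to 41353922, minus strand), TGFB2 on chromosome 1 (218345336 to 218444619, plus strand), TGFBI on chromosome 5 (136028988 to 136063818, plus strand) and LTBP2 on chromosome 14 (74498183 to 74612237, minus strand). TGFBR1 is on chromosome 9, TGFBR2 and SKIL are on chromosome 3, SMAD2 is on chromosome 18 and SMAD3 on chromosome 15. In GENCODE v44, exons of TGFB1 share 215 bases with HNRNPUL1 on the opposite strand, and those of TGFB2 share 701 bases with TGFB2-AS1 on the opposite strand and 1371 with TGFB2-OT1 on its own strand, which held 0 counts in every library. Antisense RNAs without a symbol share 182 bases with SMAD3 and 207 with LTBP2. Whether the counting used the strand is not given in the sources used here, so reads in these stretches could not be assigned with certainty.

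The promoters of both ligands and of the 2 matrix genes are shown because TGFB2 passed the test in RES and TGFB1 did not, and TGFBI and LTBP2 moved with TGFB2 in the RES group. Each is the 250 bases before the RefSeq gene start in GRCh38.p14, written 5′ to 3′ on the strand of the gene. TGFB1 covers chr19:41353923-41354172 (minus strand) and its capitals mark GCGTGGGCG and GCGGGGGCG on the reverse strand, the letters that EGR factors are known to bind. TGFB2 covers chr1:218345086-218345335 (plus strand) and its capitals mark TATAAA, the core of the TATA box. In TGFBI, chr5:136028738-136028987 (plus strand), and LTBP2, chr14:74612238-74612487 (minus strand), capitals mark the GC box GGGCGG on either strand.
TGFB1: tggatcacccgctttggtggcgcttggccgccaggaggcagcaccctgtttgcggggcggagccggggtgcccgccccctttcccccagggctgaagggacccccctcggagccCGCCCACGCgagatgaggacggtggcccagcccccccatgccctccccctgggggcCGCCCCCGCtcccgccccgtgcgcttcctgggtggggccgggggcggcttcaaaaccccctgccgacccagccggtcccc
TGFB2: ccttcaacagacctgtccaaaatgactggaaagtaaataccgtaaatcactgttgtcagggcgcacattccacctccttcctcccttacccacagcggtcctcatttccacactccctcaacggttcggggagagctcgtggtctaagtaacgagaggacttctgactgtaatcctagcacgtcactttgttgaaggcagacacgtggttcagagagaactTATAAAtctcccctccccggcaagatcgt
TGFBI: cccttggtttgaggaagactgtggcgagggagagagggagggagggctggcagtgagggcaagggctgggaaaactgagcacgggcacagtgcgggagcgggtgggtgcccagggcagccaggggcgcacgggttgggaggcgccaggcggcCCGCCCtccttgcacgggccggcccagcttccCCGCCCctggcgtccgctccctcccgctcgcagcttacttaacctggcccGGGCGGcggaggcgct
LTBP2: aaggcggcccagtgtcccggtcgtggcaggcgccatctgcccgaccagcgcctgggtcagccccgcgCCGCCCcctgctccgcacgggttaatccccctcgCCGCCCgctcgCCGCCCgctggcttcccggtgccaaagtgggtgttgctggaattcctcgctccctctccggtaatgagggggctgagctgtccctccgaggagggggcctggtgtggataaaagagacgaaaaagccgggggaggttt

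All 9 members matched an entry of the RefSeq promoter table, and both strands of each were searched for 9 motifs. TATAAA stood 29 to 24 bases before the start of TGFB2 and in no other member, against 11.1% of all 27305 promoters of this length. GCGTGGGCG was found in TGFB1 alone among the members and in 0.71% of all promoters, and GCGGGGGCG in TGFB1 alone and in 4.68%. The GC box was in 6 members (TGFB1, SMAD2, SMAD3, SKIL, TGFBI and LTBP2) and in 42.3% of all promoters, and in TGFB1 some GC boxes overlap the EGR letters. No member held the SMAD letters GTCTAGAC (0.176% of all promoters) or AGCCAGACA (0.256%), the AP-1 letters TGACTCA (4.16%), the nuclear receptor hexamer AGGTCA (12.1%) or its direct repeat with 4 spacer bases (0.0146%). A match describes these letters and is not a bound site.

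Library totals ran from 16916688 to 23083498 counts, and the tested genes held 99.9% of all counts. In a principal component analysis of all tested genes, the first component (47.0% of the variance) set the 3 RES libraries at 61.6 to 64.3 and the other 15 between −23.7 and 0.297. On the second component, Con replicate 1 lay at 21.0 and the other Con libraries at 34.6 and 31.8, so called differences from Con are also given without it. Summed CPM (counts relative to the library total, with TMM factors applied) of 10 hepatocyte genes, all of them tested, was 57590 to 58410 in Model and 17200 to 18260 in RES. The stellate cell markers COL3A1 and ACTA2, the endothelial markers CDH5 and KDR and the macrophage marker CD163 had 0 counts in all 18 libraries. Of the fibroblast list, 5 of 9 genes were tested and summed to at most 38.3 CPM in any library, and the leukocyte list, with 2 of 5 tested, summed to 5.52 to 7.23 CPM in Con and 16.0 to 21.8 CPM in Model. Most of that rise was LYZ, with means of 3.16 CPM in Con and 15.9 in Model, while CD14 was at 2.87 and 3.58 CPM. The endothelial list, with 1 of 4 tested, reached at most 1.94 CPM, and the cholangiocyte list, with 3 of 4 tested, lay between 742 and 930 CPM.

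Levels are given in CPM, as mean ± SD of 3 libraries. A difference was called when edgeR's quasi-likelihood test, fitted on all 18 libraries, gave a Benjamini-Hochberg adjusted p under 0.05 over all 14557 genes, and all adjusted p-values below come from that fit unless another is named. All comparisons with Model share its 3 libraries, and all those with Con share the Con libraries. In a test for any difference among the 6 groups, 8 of the 9 members passed, against 67% of all tested genes, and TGFB1 missed it with an adjusted p of 0.0514.

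**Figure D1:**
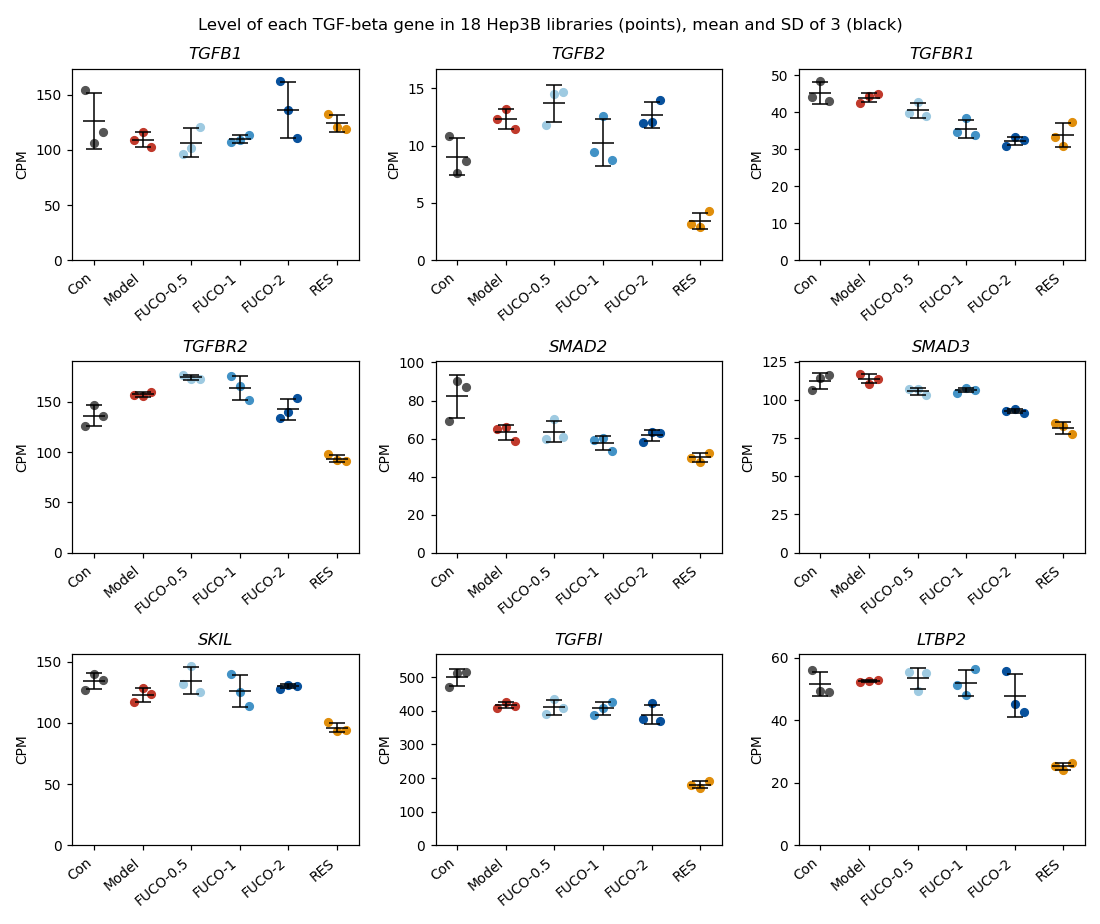
Level of each of the 9 genes (vertical axis, CPM from 0) in the 18 libraries (points), with the mean and SD of the 3 libraries of each group in black. The RES libraries lie below every other library for TGFB2, TGFBR2, SMAD2, SMAD3, SKIL, TGFBI and LTBP2, but not for TGFB1 or TGFBR1. The share of all tested genes with this order was not counted, and 49.4% of them were called in RES against Model.

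Of the ligands, TGFB2 passed the test in several comparisons and TGFB1 in none, and the difference between the genes was not tested. TGFB1, the main TGF-β isoform in most tissues, was at 155, 106 and 117 CPM in Con, 109, 116 and 103 in Model, 95.9, 102 and 121 in FUCO-0.5, 107, 109 and 114 in FUCO-1, 162, 136 and 111 in FUCO-2, and 133, 121 and 119 in RES. Con replicate 1 and FUCO-2 replicate 1 were its highest libraries, and in every comparison run the groups overlapped, except that the 3 RES libraries lay above those of Model. Its log2 fold change in FUCO-2 against Model was 0.32 (95% interval 0.07 to 0.57, adjusted p = 0.0622), 0.18 (adjusted p = 0.320) without FUCO-2 replicate 1 and 0.45 (adjusted p = 0.00964) without FUCO-2 replicate 3. It also passed without Con replicate 1 (0.0206), Con replicate 2 (0.0429) or FUCO-0.5 replicate 3 (0.0495). In RES against Model it was 0.18 (95% interval −0.06 to 0.43, adjusted p = 0.210).

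TGFB2, the second ligand, known for its part in heart and eye development and in epithelial to mesenchymal transition, had the lowest level per kilobase of its canonical transcript among the 9 genes in Con (1.54 CPM per kb, against 45.3 for TGFB1). The files hold 187, 128 and 160 reads for it in Con, 224, 237 and 212 in Model and 78, 54 and 91 in RES. That corresponds to 10.8, 7.64 and 8.65 CPM in Con, 12.3, 13.2 and 11.5 CPM in Model and 3.15, 2.91 and 4.25 CPM in RES. Every Model library lay above every Con library, and every RES library lay below all other 15.

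TGFB2 rose in Model against Con by 0.45 in log2 (SE 0.15, adjusted p = 0.0416). The call was lost without Con replicate 2 (adjusted p = 0.200), Con replicate 3 (0.132) or Model replicate 1, 2 or 3 (0.0892, 0.139 and 0.0613), and the adjusted p was 0.00872 without Con replicate 1. With FUCO it was at 13.7 ± 1.62, 10.2 ± 2.04 and 12.7 ± 1.12 CPM at 0.5, 1 and 2 μM, and no dose passed the test against Model. For FUCO-0.5 against Model its 95% interval in log2 was −0.15 to 0.45, for FUCO-1 −0.57 to 0.04 and for FUCO-2 −0.26 to 0.34. Against Con it was higher in FUCO-0.5 by 0.60 (SE 0.15, adjusted p = 0.00503) and in FUCO-2 by 0.48 (SE 0.15, adjusted p = 0.0197). The FUCO-2 call was lost without Con replicate 2 (adjusted p = 0.107), Con replicate 3 (0.0673) or FUCO-2 replicate 3 (0.0816). In RES, TGFB2 was 3.57-fold lower than in Model (−1.84 in log2, SE 0.17, adjusted p = 1.79e-09) and 2.62-fold lower than in Con (adjusted p = 2.05e-07).

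The receptors fell in RES as well, and TGFBR1 also fell with FUCO. TGFBR1, the type I receptor kinase that phosphorylates SMAD2 and SMAD3, was at 44.2, 48.5 and 42.9 CPM in Con, 42.5, 44.4 and 44.9 in Model, 39.7, 42.9 and 38.9 in FUCO-0.5, 34.6, 38.4 and 33.9 in FUCO-1, 30.9, 33.2 and 32.4 in FUCO-2, and 33.4, 30.9 and 37.4 in RES. Con and Model overlapped, and each FUCO-1, FUCO-2 and RES library lay below each Con and each Model library. The means were lower at each higher dose of FUCO, from 40.5 to 35.6 to 32.2 CPM, although FUCO-2 against FUCO-1 did not pass the test (log2 fold change −0.15, 95% interval −0.32 to 0.03, adjusted p = 0.341) while their libraries did not overlap.

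Against Model, TGFBR1 in FUCO-0.5 was at −0.12 in log2 (SE 0.08, adjusted p = 0.643). It fell in FUCO-1 by −0.30 (SE 0.08, adjusted p = 0.0369) and in FUCO-2 by −0.45 (SE 0.08, adjusted p = 0.000395). The call at 1 μM was lost in 6 of 18 fits that each left out 1 library, those without Model replicates 1, 2 and 3, FUCO-1 replicates 1 and 3 and RES replicate 1, with an adjusted p of up to 0.139. The call at 2 μM held in every such fit. RES lowered TGFBR1 against Model as well (−0.37 in log2, SE 0.08, adjusted p = 0.000462). Its level of 33.9 ± 3.26 CPM stood beside 32.2 ± 1.16 CPM in FUCO-2, with overlapping libraries, and these groups were not tested against each other. Against Con, TGFBR1 was lower in FUCO-1 (−0.34, adjusted p = 0.00406), FUCO-2 (−0.49, adjusted p = 9.37e-05) and RES (−0.42, adjusted p = 0.000116).

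TGFBR2, the type II receptor that binds the ligand, followed another order of groups. It was at 126, 147 and 136 CPM in Con, 157, 156 and 160 in Model, 177, 173 and 173 in FUCO-0.5, 175, 166 and 152 in FUCO-1, 134, 140 and 154 in FUCO-2 and 97.8, 92.2 and 90.9 in RES. The highest mean was that of FUCO-0.5 (175 ± 2.28 CPM), followed by FUCO-1, Model, FUCO-2, Con and RES (93.7 ± 3.68 CPM). Of these neighbours, only RES against Con passed the test, at −0.54 in log2 (SE 0.07, adjusted p = 8.97e-07), FUCO-0.5 and FUCO-1 having not been tested against each other.

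Against Model, TGFBR2 in RES was at 59.4% of the level (−0.75 in log2, SE 0.07, adjusted p = 6.81e-09). Model was above Con by 0.21 (SE 0.07, adjusted p = 0.0453), a difference that was lost without Con replicate 1 (0.16, adjusted p = 0.157). It was also lost without Con replicate 3 (0.126), any Model replicate (0.0908 to 0.135), any RES replicate (0.0539 to 0.0586), FUCO-0.5 replicate 1 (0.0566) or FUCO-1 replicate 2 (0.0522), and without the filter on low counts (0.0910). FUCO-0.5 and FUCO-1 were above Con by 0.36 (adjusted p = 0.000808) and 0.27 (adjusted p = 0.0102, and 0.0612 without FUCO-1 replicate 1), and FUCO-2 was at 0.07 (adjusted p = 0.545). No dose of FUCO passed the test against Model, with adjusted p-values of 0.448, 0.743 and 0.169.

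SMAD2 and SMAD3, the receptor-regulated SMADs, were both lower in RES than in Model or Con and both lower in FUCO-2 than in Con. SMAD2 was at 69.0, 90.5 and 86.9 CPM in Con, 65.2, 65.9 and 58.6 in Model, 59.9, 70.2 and 60.8 in FUCO-0.5, 59.0, 60.4 and 53.7 in FUCO-1, 58.2, 63.7 and 62.9 in FUCO-2 and between 47.8 and 52.6 in RES. Con replicate 1 was the lowest Con library and overlapped FUCO-0.5 alone among the groups, while all Model libraries lay below all Con libraries. SMAD2 fell in Model to 77.0% of Con (−0.38 in log2, SE 0.09, adjusted p = 0.00445), and the difference was −0.49 (adjusted p = 0.000119) without Con replicate 1. It was lower than Con at every dose of FUCO, by −0.37, −0.51 and −0.41 in log2 (adjusted p = 0.00438, 0.000276 and 0.00138), and passed the test against Model at no dose (adjusted p = 0.986, 0.513 and 0.819). In RES it fell further, to 79.3% of Model (−0.33 in log2, SE 0.09, adjusted p = 0.00367) and 61.1% of Con (−0.71, adjusted p = 3.44e-07).

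SMAD3 was at 106, 114 and 116 CPM in Con and 117, 111 and 114 in Model, which overlapped. It was at 107, 107 and 103 CPM in FUCO-0.5, 105, 108 and 106 in FUCO-1, 92.8, 94.0 and 91.5 in FUCO-2 and 84.7, 83.0 and 77.5 in RES. The FUCO-2 libraries lay below all those of Con, Model, FUCO-0.5 and FUCO-1, and the RES libraries lay below FUCO-2. SMAD3 fell in FUCO-2 against Model by −0.29 in log2 (SE 0.06, adjusted p = 0.00155), while FUCO-0.5 (−0.11, 95% interval −0.23 to 0.02) and FUCO-1 (−0.10, 95% interval −0.23 to 0.03) did not pass. FUCO-2 against FUCO-1 was at −0.20 (SE 0.06, adjusted p = 0.0609), a difference that passed with DESeq2 (adjusted p = 0.0115). RES was at 71.8% of Model (log2 fold change −0.48, SE 0.06, adjusted p = 8.13e-07). Against Con, SMAD3 was lower in FUCO-2 (−0.27, adjusted p = 0.00204) and RES (−0.46, adjusted p = 9.98e-07).

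SKIL, which encodes SnoN, binds SMAD complexes, represses their targets and is itself induced by TGF-β. It was at 127, 140 and 135 CPM in Con, 117, 128 and 124 in Model and 101, 93.4 and 94.1 in RES. The libraries of Con and Model overlapped and the RES libraries lay below all others. RES lowered SKIL against Model by −0.36 in log2 (SE 0.08, adjusted p = 0.000438) and against Con by −0.48 (adjusted p = 9.71e-06), and no other comparison of SKIL passed. Its means at 0.5, 1 and 2 μM FUCO were 134 ± 10.9, 126 ± 13.1 and 130 ± 1.67 CPM.

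TGFBI encodes a secreted matrix protein that binds integrins and collagens and is named for its induction by TGF-β. It had the highest level per kilobase of transcript of the 9 genes (184 CPM per kb in Con). It was at 470, 513 and 515 CPM in Con, 408, 426 and 414 in Model, and 178, 170 and 191 in RES. The 3 groups were fully separate in the order Con, Model, RES. TGFBI fell in Model to 83.4% of Con (log2 fold change −0.26, SE 0.07, adjusted p = 0.0114), a call that was lost without Con replicate 2 (adjusted p = 0.0528), Con replicate 3 (0.0577) or Model replicate 1 (0.0509), and was −0.31 (adjusted p = 0.00506) without Con replicate 1.

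The FUCO groups were at 411 ± 22.4, 408 ± 20.1 and 389 ± 28.9 CPM of TGFBI at 0.5, 1 and 2 μM. All were lower than Con, by −0.28, −0.29 and −0.36 in log2 (adjusted p = 0.00571, 0.00491 and 0.000544), and none passed the test against Model, with 95% intervals of −0.16 to 0.13, −0.18 to 0.12 and −0.24 to 0.05. In RES, TGFBI was 2.31-fold lower than in Model (−1.21 in log2, SE 0.07, adjusted p = 1.08e-12) and 2.77-fold lower than in Con (adjusted p = 1.86e-14). Among all tested genes it ranked 133 in the test across the 6 groups.

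LTBP2 encodes a protein of elastic microfibrils that belongs to the latent TGF-β binding protein family by sequence but is not known to hold latent TGF-β as its relatives do. It was at 56.2, 49.4 and 49.2 CPM in Con, 52.2, 52.6 and 53.0 in Model, 55.8, 45.2 and 42.8 in FUCO-2 and 25.4, 24.1 and 26.3 in RES. FUCO-2 replicate 1 lay above the Model libraries and the other FUCO-2 libraries lay below them, while RES lay below all others. RES lowered LTBP2 to 48.1% of Model (log2 fold change −1.06, SE 0.09, adjusted p = 1.04e-09). The difference between FUCO-2 and Model was −0.13 (SE 0.09, adjusted p = 0.311), and −0.26 (adjusted p = 0.0370) without FUCO-2 replicate 1. Model and Con differed by 0.03 in log2, with a 95% interval from −0.16 to 0.21.

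**Figure D2:**
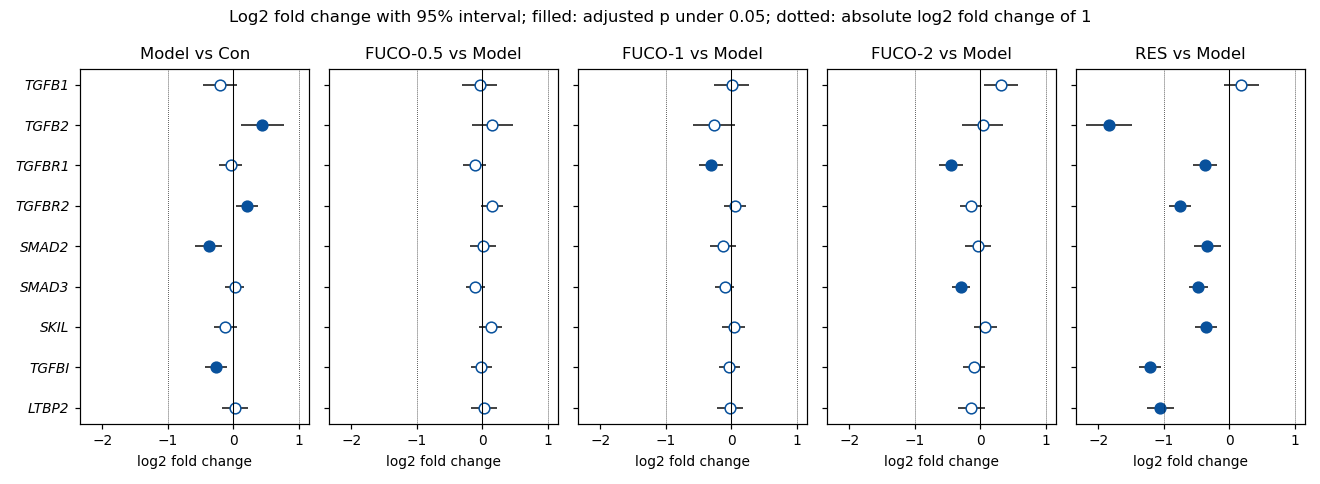
Log2 fold change of the 9 genes with 95% intervals in 5 comparisons (horizontal axis), filled where the adjusted p was under 0.05, with dotted lines at an absolute log2 fold change of 1. In RES against Model 8 genes are filled to the left of 0, and TGFB2, TGFBI and LTBP2 lie beyond the dotted line at −1.

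Counted by comparison, 4 of the 9 members were called between Model and Con, where 17.6% of all tested genes were called, with TGFB2 and TGFBR2 higher (8.43% of all genes) and SMAD2 and TGFBI lower (9.12%). The same 4 members had libraries that did not overlap between the groups, as 35.7% of all genes did. Without Con replicate 1 the count was 3. It was 1 without Con replicate 3 or without Model replicate 1, and 2 without Con replicate 2, Model replicate 2 or Model replicate 3. The median log2 fold change of the members was −0.04. SMAD2 was the member called in all 18 fits that each left out 1 library. The summed hepatocyte markers also differed between these groups, from 72530 to 80660 CPM in Con to 57590 to 58410 CPM in Model. Their part was not tested. Means of SERPINA1 (2957 to 3475 CPM) and TTR (179 to 209 CPM) went the other way. HNF4A was at 333 and 335 CPM, and the other listed markers had lower means in Model.

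Against Model, edgeR called 0 members in FUCO-0.5, where 1.45% of all genes were called, with 0 members at an unadjusted p under 0.05 and 0 with DESeq2. In FUCO-1 it called TGFBR1, against 3.21% of all genes. In FUCO-2 it called TGFBR1 and SMAD3, 2 of 9, against 20.5% of all genes, and the count was 3 without FUCO-2 replicate 1, with LTBP2 added, and 3 with TGFB1 added without Con replicate 1, Con replicate 2, FUCO-0.5 replicate 3 or FUCO-2 replicate 3. The hepatocyte marker sum in FUCO-2 was 40520 to 44110 CPM, and its part was not tested. FUCO-2 against FUCO-1 gave 0 calls with edgeR, against 6.3% of all genes, with 4 members at an unadjusted p under 0.05 (TGFB1, TGFB2, TGFBR2 and SMAD3) and 2 with DESeq2 (TGFBR2 and SMAD3). The median log2 fold change of the members was 0.01, −0.03 and −0.10 at 0.5, 1 and 2 μM.

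In RES against Model, 8 of 9 members were called, all lower, where 49.4% of all tested genes were called and 25.1% were called lower. All 8 calls held in each of 23 alternative fits, and the median log2 fold change of the members was −0.48. TGFB2, TGFBI and LTBP2 also had an absolute log2 fold change over 1, the limit that the study set for its lists, as 9.91% of all genes did. The summed hepatocyte markers were at 57590 to 58410 CPM in Model and 17200 to 18260 CPM in RES, and their part in this result was not tested. ALB was the largest part of the sum, with means of 33910 and 7528 CPM. FGB went the other way, from 112 to 150 CPM, and the other listed markers had lower means in RES. In bulk RNA of a culture, fewer cells with a given transcript and less of it per cell cannot be told apart.

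Against Con, 4 members were called in FUCO-0.5 (21.9% of all genes), 4 in FUCO-1 (18.3%), 5 in FUCO-2 (24.8%) and 8 in RES (57.3%). SMAD2 and TGFBI were lower in all of them. Without Con replicate 1, all of these calls were kept, 4, 4, 5 and 8 by comparison. In log2, TGFB2 was then at 0.745 in FUCO-0.5, 0.64 in FUCO-2 and −1.25 in RES, and TGFBR1 at −0.36 in FUCO-1, −0.50 in FUCO-2 and −0.43 in RES. TGFBR2 was at 0.31 in FUCO-0.5, 0.22 in FUCO-1 and −0.59 in RES, and SMAD3 at −0.31 in FUCO-2 and −0.50 in RES. SMAD2 was at −0.48, −0.62 and −0.52 from the lowest to the highest dose and −0.82 in RES, and TGFBI at −0.32, −0.33, −0.40 and −1.52 in the same order. SKIL and LTBP2 were at −0.52 and −0.97 in RES.

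**Figure D3:**
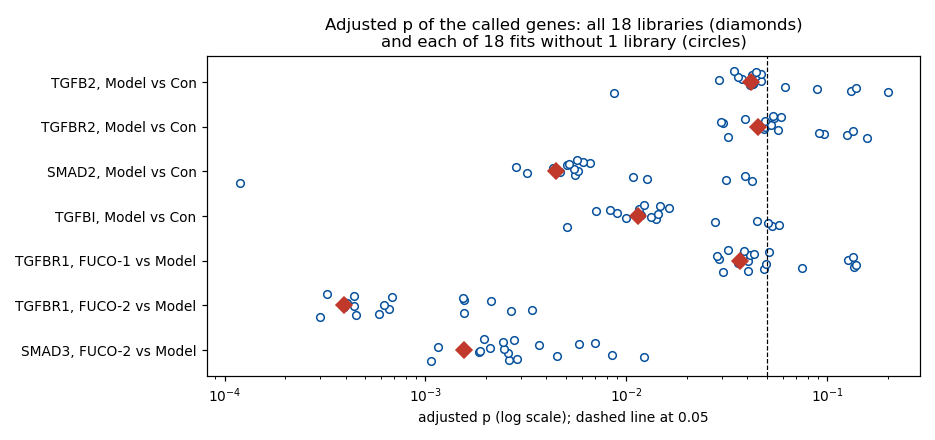
Adjusted p (log axis, dashed line at 0.05) of the 7 calls between Model and Con and between FUCO and Model, with all 18 libraries (diamonds) and in 18 fits that each left out 1 library (circles). SMAD2 in Model and TGFBR1 and SMAD3 in FUCO-2 stay to the left of the line in every fit, with a highest adjusted p of 0.0422, 0.00338 and 0.0123, and the other 4 calls have circles on both sides.

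The rest of the pathway was read from a list of 44 other genes, of which 42 were tested. The list was chosen with earlier results of these data known. Its counts in all comparisons describe it and do not test the pathway. LRRC32, with at most 1 count in any library, and PMEPA1, with 0 counts in every library, did not pass the filter on low counts. Between Model and Con, 7 of the 42 were higher and 7 lower, against 8.43% and 9.12% of all tested genes. CCN2, which encodes connective tissue growth factor, rose from 329 to 775 CPM (log2 fold change 1.24, SE 0.09, adjusted p = 1.01e-09). THBS1, a matrix protein that can release TGF-β from its latent complex, rose by 0.82 (SE 0.18, adjusted p = 0.00291) and KLF10, an early TGF-β response factor, by 0.51 (SE 0.11, adjusted p = 0.00180). CDKN2B, a cell cycle inhibitor induced by TGF-β, fell to 45.1% of Con (−1.15, adjusted p = 9.52e-07), BHLHE40 by −0.66 (adjusted p = 9.75e-06) and LTBP1, a carrier of latent TGF-β, by −0.62 (adjusted p = 3.09e-05). Targets of the pathway were therefore found on both sides. The study names CCN2 on the basis of these libraries, so its direction is not independent evidence. Without Con replicate 1, 7 were higher and 9 lower.

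At 0.5 and 1 μM FUCO, the pathway genes that edgeR called against Model were all lower, and 35 and 33 of the 42 were not called. At 0.5 μM, 7 of the 42 genes were lower (1.16% of all tested genes) and edgeR called 0 higher, with 2 higher at an unadjusted p under 0.05 and 0 with DESeq2. CCN2 fell to 306 CPM (39.5% of Model, adjusted p = 1.86e-10), KLF10 to 51.2% (adjusted p = 3.02e-06) and JUNB, an AP-1 subunit, to 56.1% (adjusted p = 0.000454). At 1 μM, 9 were lower (2.32% of all tested genes) and edgeR called 0 higher, with 1 higher at an unadjusted p under 0.05 and 0 with DESeq2. CCN2 was at 32.5% of Model (adjusted p = 9.27e-12), KLF10 at 45.8% (adjusted p = 1.52e-07) and TGIF1, a corepressor of SMAD2 and SMAD3, at 50.2% (adjusted p = 8.39e-09).

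At 2 μM, 9 pathway genes were lower and 5 higher, against 9.71% and 10.8% of all tested genes. CCN2 was at 44.6% of Model (adjusted p = 2.54e-09), TGIF1 at 56.7% (adjusted p = 2.21e-07) and ACVR2A, an activin receptor, at 64.5% (adjusted p = 1.67e-05). CDKN2B rose 2.30-fold (adjusted p = 5.11e-07) and LTBP1 1.29-fold (adjusted p = 0.00528), and ITGAV and ZFYVE9, named after their values were seen, were also called higher. Without FUCO-2 replicate 1, 11 were lower and 4 higher.

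In RES, 17 of the 42 were lower and 10 higher than in Model, against 25.1% and 24.4% of all tested genes. THBS1 fell from 992 to 160 CPM, 6.20-fold (log2 fold change −2.63, SE 0.20, adjusted p = 5.64e-11), INHBE, an inhibin subunit made in liver, 2.19-fold (adjusted p = 2.65e-12), and ITGB6, with its low level, 1.94-fold (adjusted p = 0.00421). The largest rises were those of CDKN1A, a cell cycle inhibitor, at 2.28-fold (adjusted p = 1.68e-07), SNAI1, a transcription factor of epithelial to mesenchymal transition, at 1.97-fold from 1.85 CPM (adjusted p = 0.000152) and CDKN2B at 1.72-fold (adjusted p = 2.10e-05). Of the latency and activation genes, 5 of 9 tested were called lower (LTBP1, LTBP3, ITGB6, THBS1 and FURIN). ITGAV was called higher and 3 were not called. LTBP3, LTBP1 and FURIN were named after their values were seen.

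**Figure D4:**
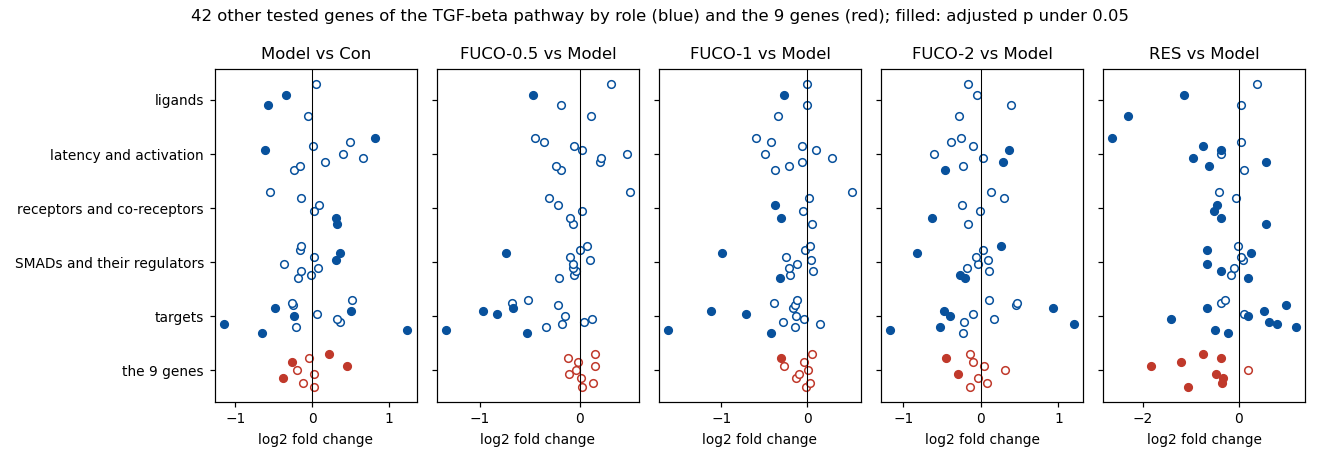
Log2 fold change (horizontal axis) of the 42 other tested pathway genes by role (blue) and of the 9 genes (red) in 5 comparisons, filled where the adjusted p was under 0.05. At 0.5 and 1 μM FUCO every filled point lies left of 0, and in RES against Model 17 blue points are filled on the left and 10 on the right.

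The genes whose levels ran most like TGFBI and LTBP2 were found by Pearson's r of log2 CPM over the 18 libraries. Since the RES libraries formed a cluster of their own, r is given over the other 15, as a description over libraries of 1 experiment. The ranking was over all 18 libraries and not over these 15. For TGFBI the genes found were DUSP3, a phosphatase (r = 0.980), AFP, the fetal serum protein that hepatomas secrete (r = 0.863), and UTRN, utrophin (r = 0.896). AFP had a mean of 6362 CPM in Con, 3348 in Model and 127 in RES. For LTBP2 they were DENND2B (r = 0.835), the growth factor IGF2 (r = 0.836) and the creatine kinase CKB (r = 0.741), and IGF2 had a mean of 5124 CPM in Model and 560 in RES.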

How the data were processed

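RNA-seq libraries of Hep3B cells were grouped by their titles. The deposited values are raw counts per gene symbol, which the authors made from paired-end reads: fastp trimmed them, STAR placed them on GRCh38.p14, and featureCounts summed them per gene. They were deposited without normalization. How strand and reads with several matches were treated is not given in the sources used here. The study states that all libraries came from 1 sequencing run, and no batch term was fitted. Counts were analysed in R 4.3.3 with edgeR 4.0.16: filterByExpr (minimum count 10, minimum total 15), TMM factors, a quasi-likelihood model of the 18 libraries in which each group had its own term and no covariate was used, and Benjamini-Hochberg adjustment over 14557 genes. Levels are CPM after TMM. With 3 libraries per group, each p-value sets a group difference against a spread between libraries that is estimated over all groups and moderated across genes. The members, the pathway and marker lists and the rule for naming other genes (in each comparison, the 3 called genes that rose most and the 3 that fell most, at a mean of at least 1 CPM) were chosen with earlier results of these data known. A gene that this rule names is not reported here. Alternatives were DESeq2 1.42.0, RLE factors, no filter, a replicate block, fits of 2 groups, the study's fold limit, and leaving out each library. On simulated counts for Model against Con with 14557 genes, edgeR recovered 183 of 200 changed genes (91.5%) with 9 false calls. That rate is a total over all 200 genes. The rate for differences as small as those of the 9 members in Model against Con was not tested. Gene positions and promoters came from RefSeq, overlaps from GENCODE v44. Same-numbered replicates were not treated as pairs.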

Additional observations from a re-analysis of the deposited data

How the results depend on the processing

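Of 90 member differences, 36 were called, 30 of these kept their call in all 23 alternatives, 6 lost it in at least 1, and 0 of the 36 changed direction. Of the 54 not called, 7 passed in at least 1 alternative and 18 changed direction in at least 1. The cause of these shifts was not tested. With the study's fold limit added, the members called numbered 0 in Model against Con, 0 in FUCO-1 and 0 in FUCO-2 against Model, 3 in RES against Model, 0 in FUCO-0.5, 0 in FUCO-1 and 0 in FUCO-2 against Con, and 3 in RES against Con. Without the filter on low counts, TGFBR2 lost its call in Model against Con (adjusted p = 0.0910), FUCO-1 against Model gave 0 and FUCO-2 against FUCO-1 gave 1, and DESeq2 gave 2 for the latter. Leaving out each library gave 1 to 4 members in Model against Con, 0 to 1 in FUCO-1 against Model and 0 to 2 in FUCO-2 against FUCO-1. Same-numbered libraries were not alike throughout (r of −0.598 to 0.523 over 45 same-numbered pairs, 18 of them over 0.1, with 8 of 18 libraries most like their own number). The replicate 2 libraries outside RES were all positively correlated (0.0522 to 0.383). Libraries with different numbers ran from −0.558 (FUCO-0.5 replicate 2 with FUCO-2 replicate 1) to 0.631 (FUCO-0.5 replicate 3 with FUCO-2 replicate 1). A replicate block does not model such pairs. Within groups, the highest and lowest r between members were those of TGFB1 with LTBP2 (0.704) and with TGFBR2 (−0.703). A structure shared between groups was not tested. A fit with a replicate block gave 3 members in Model against Con, since TGFBR2 was at an adjusted p of 0.0522, and changed no other call. Among the 6 lost calls, all named beside the results, TGFBR2 in FUCO-1 against Con was lost without FUCO-1 replicate 1 (0.0612). TGFB2 in FUCO-2 against Con was lost without Con replicate 2 (0.107), Con replicate 3 (0.0673) or FUCO-2 replicate 3 (0.0816). TGFB1 passed in RES against Model when only these 2 groups were fitted (0.00606) and in FUCO-2 against Model in 5 alternatives, with an adjusted p down to 0.00162 without the filter.

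Signs turned for log2 fold changes of up to 0.12 in size in the fit of all libraries. In SKIL, FUCO-0.5 against Con was −0.00012 with DESeq2 and −0.00018 with RLE factors. With 1 library left out, Model against Con ran from −0.079 to 0.010 in TGFBR1, −0.019 to 0.042 in SMAD3 and −0.0082 to 0.091 in LTBP2. FUCO-0.5 against Model ran from −0.14 to 0.029 in TGFB1, −0.065 to 0.053 in SMAD2, −0.060 to 0.018 in TGFBI and −0.0061 to 0.074 in LTBP2. FUCO-1 against Model ran from −0.036 to 0.052 in TGFB1, −0.038 to 0.11 in SKIL, −0.065 to 0.010 in TGFBI and −0.078 to 0.036 in LTBP2. FUCO-2 against Model ran from −0.036 to 0.090 in TGFB2 and −0.088 to 0.0030 in SMAD2. FUCO-2 against FUCO-1 ran from −0.032 to 0.12 in SKIL. Against Con, FUCO-0.5 ran from −0.061 to 0.055 in SKIL, FUCO-1 from −0.051 to 0.078 in LTBP2, FUCO-2 from −0.027 to 0.29 in TGFB1 and RES from −0.13 to 0.15 in TGFB1. The counts of other pathway genes without Con replicate 1, without FUCO-2 replicate 1 or with DESeq2 were chosen after seeing the data, and each stayed within 1.5 times the main count.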
